A study of Homo sapiens with 6 samples.

Results

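Solute carriers are a large group of membrane transport proteins in human cells, and their genes carry symbols that begin with SLC and a family number. The genes described here are the 146 of 16330 rows of the deposited expression matrix whose symbol starts with SLC and a digit, whose level averaged at least 1 FPKM over the 6 libraries, and which remained after all SLC25A genes and 15 named carriers were set aside. FPKM are counts scaled by transcript length and by the total of the library. The 15 set aside by name are SLC7A11, SLC3A2, SLC7A5, SLC7A1, SLC1A5, SLC1A4, SLC38A1, SLC38A2, SLC6A9, SLC7A6, SLC2A1, SLC2A3, SLC16A1, SLC16A3 and SLC31A1. The members were thus chosen by their level averaged over both groups together, with earlier results of these data known. The difference between the groups was not part of the rule, but the choice was not independent of it. A high level in a single group could carry a gene over the limit, as it did for SLC2A12 and SLC47A2.

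The cells were HN12, an established line from a human squamous cell carcinoma of the head and neck, treated for 24 h with CPI-613 (3 libraries) or with DMSO, called Control (3 libraries). CPI-613 is a lipoate analogue directed against the pyruvate and 2-oxoglutarate dehydrogenase complexes of the mitochondrial matrix, and DMSO is a solvent. Its dose is not given in the sources used here, and all libraries come from 1 cell line. Nothing in the labels states that a group's libraries came from separate cultures, so that a p-value here may measure technical spread alone.

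Solute carriers move their cargo either down its gradient or by coupling it to sodium, protons or a counter-ion. The plasma membrane members set the uptake of nutrients, ions and metals, while the members of lysosomes, Golgi and endoplasmic reticulum (ER) exchange cargo between those compartments and the cytosol. In tumour cells the best known members carry glucose, lactate and amino acids. Most of those were set aside by the rule, so that the genes described here are mainly the carriers of metals, ions, nucleotide sugars, vitamins, nucleosides and organic acids.

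The 146 genes belong to 42 families. They were sorted by known cargo into 9 classes of carriers and 1 class of 5 genes that are named after a carrier but encode other proteins (SLC2A4RG, SLC9A3R1, SLC9A3R2, SLC4A1AP and SLC7A6OS). The working description of carriers outside amino acids and mitochondria held only in part. Of the 146 genes, 19 carry amino acids, peptides or amine osmolytes, and the mitochondrial calcium exchanger SLC8B1 and the mitochondrial zinc carrier SLC30A9 were also among them.

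The median member had a mean level of 10.8 FPKM. Of the members, 40 lay under 5 FPKM, 64 between 5 and 20 FPKM, and 42 at 20 FPKM or more. Just inside the limit lay SLC12A8 at 1.04 FPKM and SLC35G1 at 1.043 FPKM, and just outside it lay SLC7A2 at 0.983 FPKM and SLC30A4 at 0.96 FPKM. A group mean of at least 1 FPKM in both groups was reached by 139 members. Another 2 members, SLC16A9 and SLC35F3, met the limit only through the CPI-613 libraries, and 5 (SLC2A12, SLC15A3, SLC47A2, SLC35G1 and SLC12A8) only through the Control libraries. All 146 passed the filter on low counts and were tested.

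The libraries held 11531942 to 15486513 counts. The 10 most abundant genes took 4.65% to 7.76% of a library. Markers of squamous epithelium summed to 3063 to 6642 FPKM in the CPI-613 libraries and 4832 to 7202 FPKM in the Control libraries. None of these 10 markers was called in either direction by edgeR or by DESeq2, with 0 higher and 1 lower before p-value adjustment (p under 0.05). In a fit with an offset for GC content and length, 1 of the 10 was called lower, the basal keratin KRT5, at 961 ± 552 CPM with CPI-613 and 2229 ± 294 CPM in Control without overlap (SD, n = 3 each, offset fit log2 fold change -1.51, edgeR adjusted p = 0.0123). Of the leukocyte markers, PTPRC, CD4 and CD8A stayed under 1 FPKM in all 6 libraries. CD68 was at 34.4 FPKM with CPI-613 and 36.9 FPKM in Control and was not called (log2 fold change 0.13, edgeR adjusted p = 0.878), nor was LYZ, at 0.673 FPKM with CPI-613 and 0.843 FPKM in Control (edgeR adjusted p = 0.924). CD14 was called lower with CPI-613 (2.43 ± 1.79 against 24.4 ± 6.45 CPM, SD, n = 3 each, edgeR adjusted p = 0.025). All 6 endothelial markers were under 1 FPKM. The fibroblast markers summed to 5.8 to 6.12 FPKM in CPI-613 and 6.54 to 8.09 FPKM in Control libraries, nearly all of it COL1A1. In bulk RNA, fewer cells of a kind and less RNA per cell cannot be told apart.

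Within each group, libraries stood apart by transcript GC content. Of the 45 members with under 45% GC, CPI-613 replicate 3 had the lowest value of the 3 CPI-613 libraries in 42 and the lowest of all 6 libraries in 34. Of the 31 members with at least 60% GC, it had the highest value of the CPI-613 libraries in 29. Control replicate 2 moved the same way within its group, being lowest in 41 of the 45 and highest in 25 of the 31. The log2 ratio of CPI-613 replicate 3 to replicate 1 had a Pearson r of 0.83 and a Spearman rho of 0.84 with GC content across the 146 genes, which share these libraries and their depth. For Control replicate 2 over replicate 1 the values were 0.65 and 0.64. The results from edgeR's quasi-likelihood test are therefore set beside those of the same test with an offset for GC content and length.

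**Figure D1:**
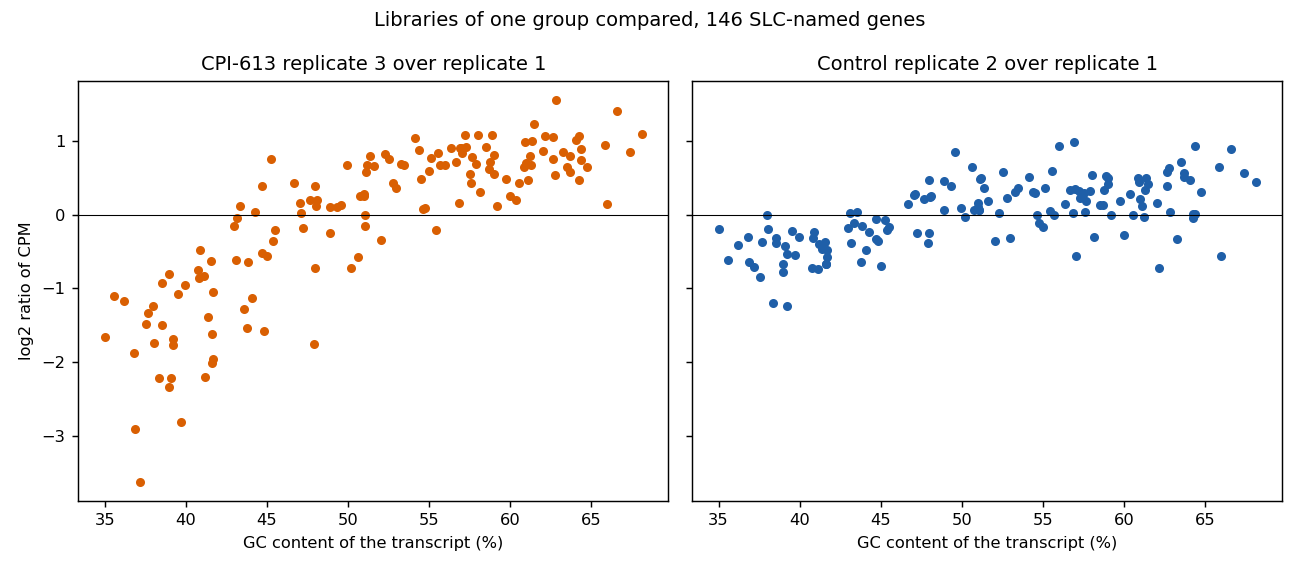
Each point is 1 of the 146 genes. The x axis is the GC content (%) of the longest protein-coding transcript of the gene. The y axis is the log2 ratio of CPM between 2 libraries of the same group. The panels show CPI-613 replicate 3 over replicate 1 (left) and Control replicate 2 over replicate 1 (right). Genes with under 45% GC had a median log2 ratio of -1.24 in the CPI-613 panel and -0.41 in the Control panel, and genes with at least 60% GC had medians of 0.80 and 0.38.

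The comparison of CPI-613 with Control asked which transporter genes changed in cells given an inhibitor of mitochondrial metabolism. Levels by library are given as CPM, counts scaled to a common library total after TMM scaling. Of the 146 genes, 4 were higher with CPI-613 (SLC16A13, SLC29A2, SLC44A4 and SLC39A14), 3 were lower (SLC2A12, SLC1A3 and SLC47A2) and 139 did not pass an adjusted p of 0.05. This is 4.79% of the members, beside 3.18% of all 12671 genes tested, of which 1.94% were higher and 1.24% lower. Restricted to members that averaged at least 1 FPKM in each group, the counts were 4 higher and 1 lower. DESeq2 called 13 higher and 5 lower, beside 5.92% of the genes to which it gave an adjusted p. With the GC and length offset, 29 were higher and 8 lower, or 25.3% of the members, beside 11.5% of all genes (6.13% higher and 5.34% lower), and all 7 of the first fit were among them.

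The groups did not overlap in 45 of the 146 members, 35 with all CPI-613 libraries above and 10 with all below, beside 21.0% of all genes tested (11.8% above and 9.18% below). The median log2 fold change of the members was 0.17, beside 0.02 over all genes tested, and 0.20 beside 0.01 with the GC and length offset. With library size as the only scaling the median over all genes moved to -0.17 and that of the members to -0.03. Estimates were above 0 in 95 members, beside 51.8% of all genes. An unadjusted p under 0.05 was reached by 28 higher and 7 lower members, beside 14.4% of all genes (8.45% higher and 5.93% lower).

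The 7 calls depended on the libraries. None of the 146 members was called by edgeR without Control replicate 1, without Control replicate 3 or without CPI-613 replicate 2, where at most 7 of all genes were called. Under an unadjusted p of 0.05 there were 23 members without Control replicate 1 (beside 8.32% of all genes), 22 without Control replicate 3 (beside 8.73%) and 25 without CPI-613 replicate 2 (beside 9.11%). Without Control replicate 2, SLC16A13 was the one member called, beside 1.70% of all genes. Without CPI-613 replicate 1 the counts were 15 higher and 3 lower members, beside 7.08% of all genes, and without CPI-613 replicate 3 they were 8 higher and 5 lower, beside 5.11%. In the fit with the GC and length offset, 11 members, among them all 7, were called with all libraries and in every one of the 6 fits that left out 1 library, beside 4.23% of all genes.

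**Figure D2:**
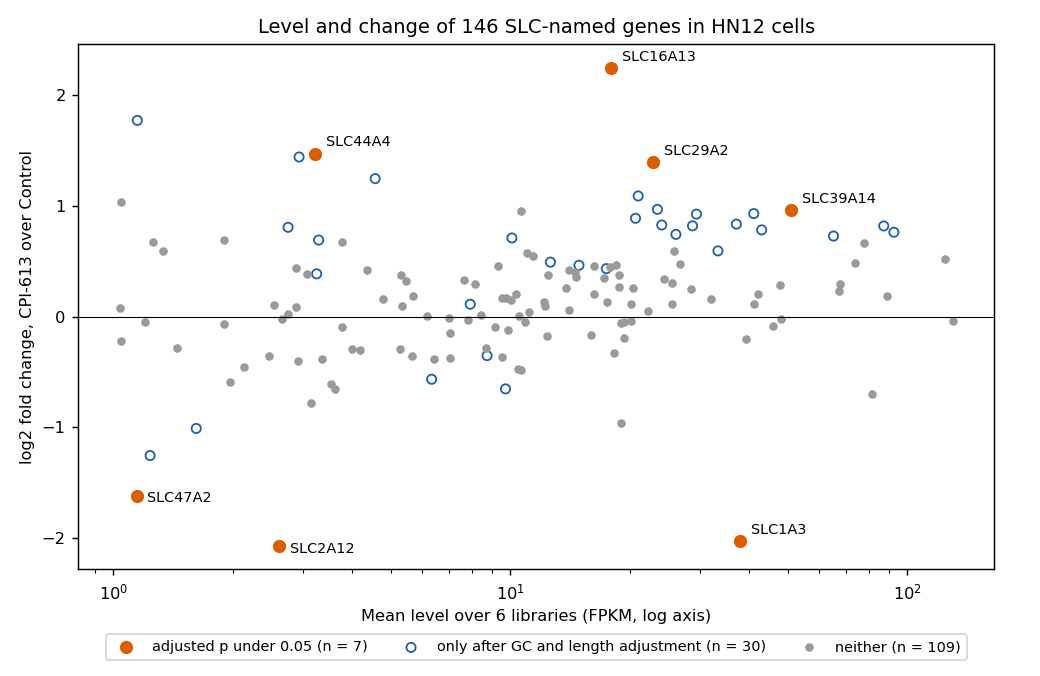
Each point is 1 of the 146 genes, placed by its mean level over the 6 libraries (FPKM, log axis) and its log2 fold change of CPI-613 over Control (edgeR). The 7 filled orange points are called at an adjusted p under 0.05 and lie between log2 fold changes of -2.07 and 2.25, and open circles mark the 30 genes called only with the GC and length offset.

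Among the carriers of organic acids, SLC16A13 had the largest fold change of the called members. It belongs to the proton-coupled monocarboxylate carrier family, whose best known members move lactate and pyruvate. SLC16A13 (gene ID 201232, chr17:7036015-7040117, GRCh38) had 34.6, 50.4 and 63.2 CPM in CPI-613 replicates 1 to 3, against 9.79, 11.02 and 10.38 CPM in Control replicates 1 to 3. All 3 CPI-613 libraries lay far above the Control libraries, which were close together. The means were 49.4 ± 14.3 CPM with CPI-613 and 10.4 ± 0.614 CPM in Control (SD, n = 3 each), a log2 fold change of 2.25 (SE 0.28, edgeR adjusted p = 0.0115). With the GC and length offset it was 1.99 (edgeR adjusted p = 0.000435), and over the 23 alternative fits the adjusted p ran from 1.54e-10 to 0.0995, with 20 of them under 0.05. Its annotation holds 1 transcript in the deposited table and no overlapping gene.

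SLC16A9, a family member linked to the transport of carnitine, lay near the limit of the rule, with a mean of 1.74 FPKM with CPI-613 and 0.557 FPKM in Control. It had 9.55, 6.99 and 3.64 CPM in CPI-613 libraries, against 2.19, 2.25 and 1.45 CPM in Control libraries, with no overlap between the groups. Its log2 fold change of 1.77 did not pass in edgeR (adjusted p = 0.0818), and with the GC and length offset it was 1.87 (edgeR adjusted p = 0.00575). Of the 11 organic acid carriers, 1 was called higher and none lower, and with the offset 4 higher and 1 lower. Over all genes the share called was 3.18% without the offset and 11.5% with it. The median log2 fold change of the class was 0.39. The lower one with the offset was SLC27A1, a fatty acid transport protein, at 16.6 ± 4.92 CPM with CPI-613 and 24.6 ± 4.03 CPM in Control (SD, n = 3 each, edgeR with the offset, adjusted p = 0.0326).

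The nucleoside carriers split in value. SLC29A2 encodes the equilibrative nucleoside transporter ENT2, which passes nucleosides and nucleobases in both directions across the plasma membrane. SLC29A2 (gene ID 3177, chr11:66362521-66372446) had 68.3, 78.3 and 94.8 CPM in CPI-613 libraries, against 31.96, 34.69 and 24.96 CPM in Control libraries. Every CPI-613 value was above every Control value. The means were 80.5 ± 13.4 CPM with CPI-613 and 30.5 ± 5.02 CPM in Control (SD, n = 3 each), a log2 fold change of 1.40 (SE 0.23, edgeR adjusted p = 0.0251). With the GC and length offset the log2 fold change was 1.23 (edgeR adjusted p = 0.00279), and 18 of the 23 alternatives called it, with adjusted p between 1.38e-05 and 0.157. The related SLC29A1, which encodes ENT1, was at 69.8 ± 23.5 CPM with CPI-613 and 80.2 ± 33.2 CPM in Control (SD, n = 3 each) and was not called (log2 fold change -0.20, edgeR adjusted p = 0.853). The other 2 nucleoside or nucleobase carriers, SLC29A3 and SLC43A3, were not called either, at log2 fold changes of -0.30 and -0.17. The class thus held 1 call among 4 genes, beside 3.18% of all genes.

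In the listed enzymes of nucleoside salvage, 1 of 17 tested genes was called higher and 1 lower, and with the offset 1 higher and 2 lower, the added one being the thymidine kinase TK1 (adjusted p = 0.0478). UPP1, uridine phosphorylase, averaged 632 ± 110 CPM with CPI-613 and 48.2 ± 11.2 CPM in Control (SD, n = 3 each, log2 fold change 3.71, edgeR adjusted p = 0.00387). ADA, adenosine deaminase, averaged 6.5 ± 2.78 CPM with CPI-613 and 32.9 ± 13.6 CPM in Control (SD, n = 3 each, log2 fold change -2.34, edgeR adjusted p = 0.046). The median log2 fold change of the 17 was 0.04. Beside these counts, 3.18% of all genes were called without the offset and 11.5% with it.

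Metal carriers include the SLC39 (ZIP) family, which brings zinc and other metals into the cytosol, and the SLC30 (ZnT) family, which moves zinc out of it. The class of metal and heme carriers also holds genes of other families, such as SLC41. SLC39A14 encodes ZIP14, a carrier of zinc, iron and manganese. SLC39A14 (gene ID 23516, chr8:22367278-22434129) had 274, 330 and 313 CPM in CPI-613 libraries, against 147, 171 and 154 CPM in Control libraries. The libraries of each group were close together and the groups did not overlap. The means were 306 ± 28.7 CPM with CPI-613 and 157 ± 12.3 CPM in Control (SD, n = 3 each), a log2 fold change of 0.96 (SE 0.17, edgeR adjusted p = 0.0313). With the offset it was 0.94 (edgeR adjusted p = 0.00732), and the adjusted p of the 23 alternatives ran from 0.00024 to 0.232, with 18 under 0.05.

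It was the only called one of 22 metal and heme carriers, beside 3.18% of all genes. The median log2 fold change of these 22 was 0.16. With the GC and length offset 3 more were called higher and none lower, or 18.2% of the class beside 11.5% of all genes. SLC30A1, the zinc exporter ZnT1 of the plasma membrane, had 32.9, 21.97 and 13.6 CPM in CPI-613 libraries, against 14.3, 14.3 and 13.8 CPM in Control libraries. CPI-613 replicate 3 lay just under the Control libraries and the other 2 CPI-613 libraries above them. Its log2 fold change was 0.69 (edgeR adjusted p = 0.446) and 1.13 with the offset (adjusted p = 0.0314). SLC30A7, the Golgi zinc carrier ZnT7, had 88.6, 60.5 and 38.9 CPM in CPI-613 libraries, against 50.7, 37.8 and 47.9 CPM in Control libraries, and its log2 fold change was 0.46 (edgeR adjusted p = 0.634) and 1.04 with the offset (adjusted p = 0.0455). The gene overlaps DPH5, and whether counting used the strand is not stated. SLC39A13, the carrier ZIP13, was at 82.3 ± 16.04 CPM with CPI-613 and 43.3 ± 10.9 CPM in Control (SD, n = 3 each, offset fit log2 fold change 0.77, adjusted p = 0.0131).

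The members with the highest levels included 2 zinc carriers that were not called. SLC39A1, which encodes ZIP1, had 88.9, 115 and 150 FPKM in CPI-613 libraries, against 139, 160 and 128 FPKM in Control libraries. SLC39A7, the ER zinc carrier ZIP7, had 73.1, 92.2 and 100 FPKM with CPI-613, against 86.9, 103 and 79.0 FPKM in Control. For both the groups overlapped, and their edgeR adjusted p were 0.964 and 0.807. Of 4 tested genes for zinc buffering and sensing, 1 was called with or without the offset, the metallothionein MT1X, at 3.34 ± 1.16 CPM with CPI-613 and 20.1 ± 7.66 CPM in Control (SD, n = 3 each, log2 fold change -2.59, edgeR adjusted p = 0.0269). MT2A, another metallothionein, averaged 310 ± 61.8 CPM with CPI-613 and 193 ± 55.2 CPM in Control (SD, n = 3 each) and was not called (edgeR adjusted p = 0.283). The share of all genes called was 3.18% without the offset and 11.5% with it.

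**Figure D3:**
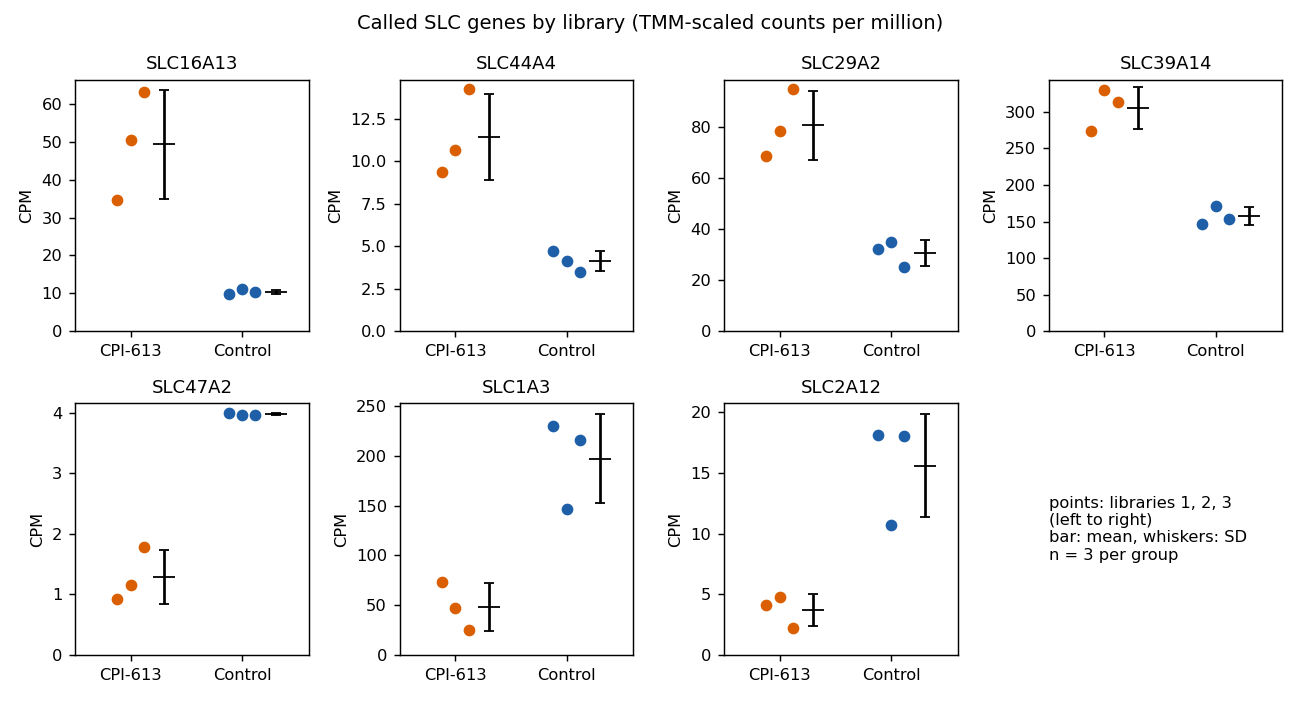
Each panel shows the TMM-scaled CPM (y axis, from 0) of 1 called gene in the 3 CPI-613 libraries (orange) and the 3 Control libraries (blue), with the mean and SD beside each group (n = 3). In all 7 panels the groups do not overlap, as for SLC16A13 with 34.6 to 63.2 CPM in CPI-613 and 9.79 to 11.02 CPM in Control libraries.

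Among the carriers of vitamins, choline and carnitine, SLC44A4 was called higher. It belongs to the choline transporter-like family and is known as a carrier of thiamine pyrophosphate, the cofactor of the dehydrogenase complexes that CPI-613 is directed against. SLC44A4 (gene ID 80736, chr6:31863192-31878997) had 9.33, 10.7 and 14.2 CPM in CPI-613 libraries, against 4.70, 4.11 and 3.51 CPM in Control libraries. The groups did not overlap, at a low level in both. The means were 11.4 ± 2.54 CPM with CPI-613 and 4.11 ± 0.595 CPM in Control (SD, n = 3 each), a log2 fold change of 1.47 (SE 0.28, edgeR adjusted p = 0.0414). With the offset it was 1.28 (edgeR adjusted p = 0.00565), and 18 of the 23 alternatives called it (adjusted p from 0.00039 to 0.258). Its counts are spread over 12 transcript entries, some of which are copies of the same RefSeq transcript, and it overlaps the antisense gene EHMT2-AS1.

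No other member of this class of 16 was called by edgeR without the offset, where 3.18% of all genes were called. The median log2 fold change of the class was 0.11. With the offset 2 were higher and none lower, or 12.5% of the class beside 11.5% of all genes. The riboflavin carrier SLC52A2 had 138, 212 and 267 CPM in CPI-613 libraries, against 103, 161 and 100 CPM in Control libraries, with overlap (edgeR adjusted p = 0.311, offset fit adjusted p = 0.0407). SLC44A2, another choline transporter-like gene, had 109, 140 and 162 FPKM with CPI-613, against 110, 113 and 111 FPKM in Control (edgeR adjusted p = 0.411). SLC44A3 was chosen after its values were seen, for its non-overlapping groups. It had 11.7 ± 1.75 FPKM with CPI-613 and 26.4 ± 2.09 FPKM in Control (SD, n = 3 each) and was not called by edgeR (log2 fold change -0.96, adjusted p = 0.109). This was the lowest log2 fold change of the class, in which DESeq2 called 1 gene higher and 1 lower, both of family SLC44.

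The 3 genes that were lower with CPI-613 come from 3 cargo classes. SLC2A12 (0.887 FPKM with CPI-613, 4.35 in Control) and SLC47A2 (0.463 and 1.83) met the rule's limit only through the Control libraries. Their place among the members is thus tied to the group in which they were higher. SLC2A12 encodes GLUT12, a facilitative glucose carrier. SLC2A12 (gene ID 154091, chr6:133987581-134052624) had 4.13, 4.76 and 2.25 CPM in CPI-613 libraries, against 18.1, 10.7 and 18.01 CPM in Control libraries. All Control libraries were above all CPI-613 libraries, Control replicate 2 being the lowest of its group. The means were 3.71 ± 1.31 CPM with CPI-613 and 15.6 ± 4.24 CPM in Control (SD, n = 3 each), a log2 fold change of -2.07 (SE 0.38, edgeR adjusted p = 0.0363). With the offset it was -1.71 (edgeR adjusted p = 0.00538), and the 23 alternatives gave adjusted p from 2.26e-05 to 0.189, 18 of them under 0.05. Part of TBPL1, a protein-coding gene, overlaps it.

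Of the 13 carriers of sugars, polyols and sugar phosphates, SLC2A12 alone was called, beside 3.18% of all genes. The median log2 fold change of these carriers was 0.10. SLC2A6, the lysosomal carrier GLUT6, was chosen after its values were seen. It averaged 121 ± 33.2 CPM with CPI-613 and 63.7 ± 17.7 CPM in Control (SD, n = 3 each) without overlap, and passed with the offset (log2 fold change 0.71, adjusted p = 0.0119) but not without it (log2 fold change 0.93, edgeR adjusted p = 0.17).

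SLC1A3 encodes EAAT1, which takes up glutamate and aspartate with sodium. SLC1A3 (gene ID 6507, chr5:36596588-36688334) had 72.8, 47.3 and 24.9 CPM in CPI-613 libraries, against 230, 146 and 215 CPM in Control libraries. The CPI-613 libraries spread widely, yet each was below every Control library. The means were 48.3 ± 24.0 CPM with CPI-613 and 197 ± 44.4 CPM in Control (SD, n = 3 each), a log2 fold change of -2.03 (SE 0.40, edgeR adjusted p = 0.0453). With the offset it was -1.93 (edgeR adjusted p = 0.00137), and 16 of the 23 alternatives called it (adjusted p from 0.00013 to 0.222). The antisense gene SLC1A3-AS1 overlaps it.

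SLC47A2 encodes MATE2, an exporter of organic cations that exchanges them for protons. SLC47A2 (gene ID 146802, chr17:19678317-19718979) had 0.926, 1.15 and 1.78 CPM in CPI-613 libraries, against 3.995, 3.958 and 3.969 CPM in Control libraries. The Control libraries were nearly equal and above all CPI-613 libraries. The level was close to the limit of the rule, which the gene met only through the Control libraries. It rests on few counts per library, so that the closeness of the Control values says little about their spread. The means were 1.29 ± 0.443 CPM with CPI-613 and 3.97 ± 0.0191 CPM in Control (SD, n = 3 each), a log2 fold change of -1.62 (SE 0.32, edgeR adjusted p = 0.0453). With the offset it was -1.85 (edgeR adjusted p = 0.00279), and the 23 alternatives ranged from 0.00279 to 0.257, with 17 under 0.05.

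**Figure D4:**
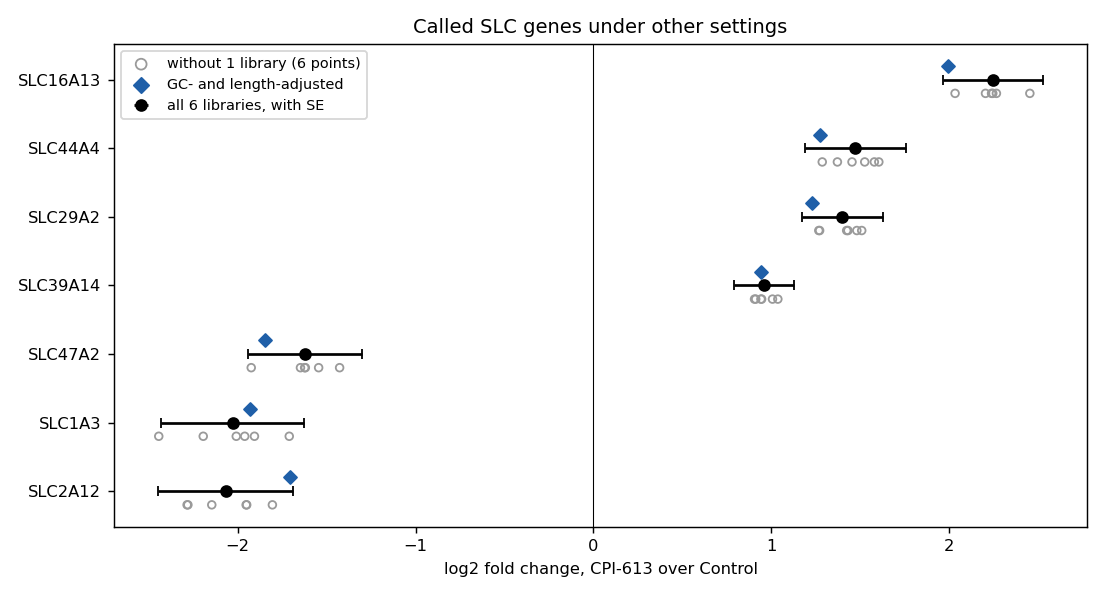
For each of the 7 called genes the black point is the log2 fold change of CPI-613 over Control from all 6 libraries with its SE (edgeR), the blue diamond the value with the GC and length offset, and the 6 open circles the values with 1 library left out. No estimate crosses 0, and SLC16A13 moves only from 2.25 to 1.99 with the offset.

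In the class of organic ions, drugs and vesicular cargo, SLC47A2 was the one call among 7 genes, beside 3.18% of all genes. SLC22A15, a carrier of zwitterions and organic cations, had 28, 17.98 and 6.81 CPM in CPI-613 libraries, against 7.36, 5.12 and 6.95 CPM in Control libraries. CPI-613 replicate 3 lay within the Control range and the other 2 CPI-613 libraries well above it. The log2 fold change was 1.44 (edgeR adjusted p = 0.228) and 1.61 with the offset (adjusted p = 0.00313).

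SLC1A3 was likewise the one call among the 19 carriers of amino acids, peptides and amine osmolytes, beside 3.18% of all genes. The median log2 fold change of these carriers was 0.20. The offset added 4 higher genes, SLC43A2, SLC66A1, SLC6A15 and SLC38A9, and 2 lower ones, SLC15A3 and SLC6A6. With it 36.8% of the 19 were called, beside 11.5% of all genes. SLC43A2, the neutral amino acid carrier LAT4, had 33.8, 53.7 and 64.0 CPM in CPI-613 libraries, against 21.2, 23.2 and 19.4 CPM in Control libraries, without overlap (offset fit log2 fold change 1.16, adjusted p = 0.00645). The lysosomal exporter of cationic amino acids, SLC66A1, had 52.4, 63.5 and 78.5 CPM with CPI-613, against 27.4, 39.3 and 24.6 CPM in Control, also without overlap (offset fit log2 fold change 0.88, adjusted p = 0.00983). SLC15A3, a lysosomal carrier of histidine and peptides, had 0.926, 1.46 and 2.48 CPM with CPI-613, against 3.92, 3.96 and 3.74 CPM in Control (offset fit log2 fold change -1.57, adjusted p = 0.00569).

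Without the offset these 3 genes had edgeR adjusted p of 0.0701, 0.0915 and 0.167. SLC15A3 overlaps the protein-coding gene TMEM132A. SLC6A15, a carrier of branched-chain amino acids and proline, had 91.4, 71.4 and 27.1 CPM in CPI-613 libraries, against 47.8, 41.5 and 45.7 CPM in Control libraries. CPI-613 replicate 3 was the lowest and replicate 1 the highest of the 6 (edgeR adjusted p = 0.714, offset fit adjusted p = 0.0283). SLC6A6, the taurine carrier, chosen after its values were seen, had 39.3, 44.8 and 47.0 CPM with CPI-613, against 67.2, 72.2 and 66.8 CPM in Control, with no overlap (log2 fold change -0.65, edgeR adjusted p = 0.126, offset fit -0.74, adjusted p = 0.00746).

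The carriers of inorganic ions and acid-base balance held no call among 24 genes in edgeR, with 5 higher and 1 lower before p-value adjustment (p under 0.05) and 3 higher by DESeq2. Over all genes, 8.45% were higher and 5.93% lower at that unadjusted edgeR p. With the offset 5 were higher, among them SLC20A1, SLC20A2 and SLC26A6, and 2 lower (SLC9A9 and SLC9A3), or 29.2% of the class beside 11.5% of all genes. The groups did not overlap in 10 of the 24, beside 21.0% of all genes tested. Both type III sodium-phosphate carriers, SLC20A1 and SLC20A2, were among the 5. SLC20A1 had 316, 372 and 353 CPM in CPI-613 libraries, against 191, 228 and 172 CPM in Control libraries (log2 fold change 0.82, edgeR adjusted p = 0.0679, offset fit adjusted p = 0.0172). SLC20A2 averaged 170 ± 38.4 CPM with CPI-613 and 95.4 ± 16.5 CPM in Control (SD, n = 3 each, offset fit log2 fold change 0.69, adjusted p = 0.0248).

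SLC9A9 encodes the endosomal sodium-proton exchanger NHE9. It had 3.56, 3.46 and 2.32 CPM in CPI-613 libraries, against 6.11, 4.73 and 8.01 CPM in Control libraries (log2 fold change -1.01, edgeR adjusted p = 0.181, offset fit -0.91, adjusted p = 0.034). SLC26A6, an anion exchanger, came closest to the threshold without the offset, at 75.9 ± 8.71 CPM with CPI-613 and 38.8 ± 5.15 CPM in Control (SD, n = 3 each, log2 fold change 0.97, edgeR adjusted p = 0.0534). None of the 6 SLC12 cation-chloride cotransporter genes passed in edgeR with or without the offset, by DESeq2 or before adjustment (0 with p under 0.05), and their log2 fold changes ran from -0.40 to 0.46.

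The class of nucleotide sugars and other cargo of the ER and Golgi is the largest, with 25 genes, 24 of them of family SLC35. None was called by edgeR without the offset, and 1 was higher by DESeq2. Before p-value adjustment (p under 0.05) 7 were higher and 0 lower, beside 8.45% and 5.93% of all genes. With the offset 6 were higher and none lower, beside 6.13% and 5.34% of all genes. SLC33A1, which carries acetyl-CoA into the ER, had 119, 107 and 56.1 CPM in CPI-613 libraries, against 59.5, 50.8 and 58.5 CPM in Control libraries. CPI-613 replicate 3 lay among the Control values and the other 2 far above them (log2 fold change 0.74, edgeR adjusted p = 0.308, offset fit 1.21, adjusted p = 0.0219). SLC35D2, a Golgi carrier of UDP-sugars, averaged 36.3 ± 3.94 CPM with CPI-613 and 19.6 ± 1.74 CPM in Control without overlap (SD, n = 3 each, edgeR adjusted p = 0.0857, offset fit log2 fold change 0.77, adjusted p = 0.00852).

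The GDP-fucose carrier SLC35C1 averaged 32.7 ± 7.55 CPM with CPI-613 and 19.96 ± 3.80 CPM in Control (SD, n = 3 each, offset fit adjusted p = 0.0369). SLC35E2A and SLC35E2B are near-identical copies, so that the split of counts between them is uncertain. Of 27 tested genes of nucleotide sugar synthesis, 2 were called higher and none lower, with a median log2 fold change of 0.23. With the offset 5 were higher, the added ones being GFPT1 (edgeR adjusted p = 0.0057), PGM3 (0.00491) and UGDH (0.046), and 1 was lower, the galactokinase GALK1 (0.012). Among all genes the share called was 3.18% without the offset and 11.5% with it. GFPT2, the entry enzyme of the hexosamine pathway, averaged 28.03 ± 0.466 CPM with CPI-613 and 9.20 ± 1.10 CPM in Control (SD, n = 3 each, log2 fold change 1.61, edgeR adjusted p = 0.0151). GNE, which starts sialic acid synthesis, averaged 27.6 ± 3.92 CPM with CPI-613 and 12.3 ± 1.17 CPM in Control (SD, n = 3 each, log2 fold change 1.17, edgeR adjusted p = 0.0471).

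**Figure D5:**
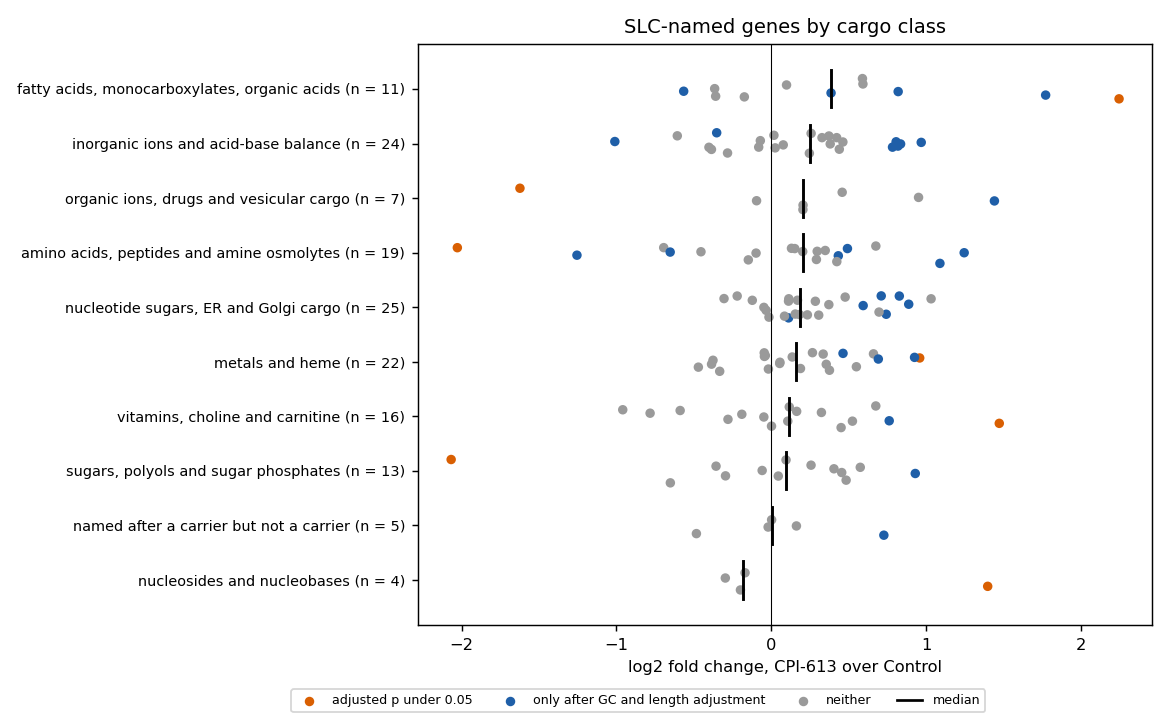
Each point is 1 of the 146 genes at its log2 fold change of CPI-613 over Control (edgeR, x axis), in rows by cargo class with the class median as a bar. Class medians run from -0.18 for nucleoside carriers to 0.39 for organic acid carriers, and each of the 7 called genes (orange) is the outermost point of its row on one side.

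The 5 genes that encode no carrier held no call, with a median log2 fold change of 0.00. SLC2A4RG, a DNA-binding regulator named after the glucose carrier gene SLC2A4, had the highest mean FPKM of them. It had 114, 178 and 242 CPM in CPI-613 libraries, against 95.02, 129 and 98.8 CPM in Control libraries. The groups overlapped (edgeR adjusted p = 0.321, offset fit adjusted p = 0.0323).

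The other SLC rows give the setting of these values. Of the 39 SLC25A genes at a mean of at least 1 FPKM, the mitochondrial inner membrane carriers, none was called by edgeR without the offset, with 1 higher and 2 lower before p-value adjustment (p under 0.05), and their median log2 fold change was 0.08. The citrate carrier SLC25A1 was higher by DESeq2 and was the 1 called, also higher, with the offset. Of the 14 tested carriers set aside by name, 4 were called higher (SLC7A11, SLC7A1, SLC1A4 and SLC6A9) and none lower, with a median of 0.70, and with the offset 8 were higher and none lower. Below the limit of 1 FPKM lay 115 SLC rows, of which 27 passed the filter on low counts. SLC43A1 and SLC16A14 were called higher and SLC6A2 lower among these 27, and all 3 were named because of their calls. With the offset 4 of the 27 were higher, SLC9A2 and SLC16A6 being added, and 1 lower. Beside these counts, 3.18% of all genes were called without the offset and 11.5% with it. The difference between the groups of SLC genes was not tested.

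Other transport genes were read from lists. None of 15 tested genes for P-type ion pumps was called by edgeR without the offset or by DESeq2, with 0 higher and 2 lower before p-value adjustment (p under 0.05). With the offset 1 was lower, the sodium pump subunit ATP1B1, at 156 ± 42.6 CPM with CPI-613 and 272 ± 30.4 CPM in Control (SD, n = 3 each, log2 fold change -0.86, edgeR adjusted p = 0.0267). Of 26 tested ABC transporters, ABCA3 and ABCC3 were called higher and ABCC6 lower, at log2 fold changes of 2.12, 1.65 and -2.25. ABCC3, an exporter of organic anion conjugates, averaged 186 ± 12.6 CPM with CPI-613 and 59.1 ± 6.54 CPM in Control (SD, n = 3 each, edgeR adjusted p = 0.0072), and ABCC6 was under 1 CPM in both groups. The offset fit called 4 ABC transporters higher, adding ABCA13 and ABCG1, and 3 lower, adding ABCB6 and ABCD3. Of all genes, 3.18% were called without the offset and 11.5% with it. None of 5 SLCO organic anion carriers was called by edgeR with or without the offset (1 higher and 0 lower before p-value adjustment (p under 0.05), none by DESeq2).

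None of 8 tested genes that control cation-chloride cotransport (the kinases WNK1, WNK2, WNK4, STK39, OXSR1 and SGK1, and the ubiquitin ligase subunits KLHL3 and CUL3) was called by edgeR without the offset, with 1 higher and 1 lower both before adjustment (p under 0.05) and by DESeq2. With the offset WNK4 was higher (log2 fold change 1.25, edgeR adjusted p = 0.0349) and WNK2 lower (log2 fold change -1.46, edgeR adjusted p = 0.00608). A further list of 6 tested genes linked to transport (BSG, EMB, PDZK1, ARL6IP5, LRRC8A and OSTM1) gave the same counts. With the offset LRRC8A was higher (edgeR adjusted p = 0.003) and PDZK1 lower (edgeR adjusted p = 0.0131). Of 7 carbonic anhydrases, which supply bicarbonate and protons to ion carriers, CA2 was called lower, at 16.5 ± 1.33 CPM with CPI-613 and 109 ± 56.5 CPM in Control (SD, n = 3 each, log2 fold change -2.72, edgeR adjusted p = 0.0208). CA9 had the larger estimate, at 2.88 ± 2.43 CPM with CPI-613 and 45.8 ± 30.2 CPM in Control without overlap (SD, n = 3 each, log2 fold change -3.99). It missed the threshold in edgeR (adjusted p = 0.0618) and was called lower by DESeq2 (adjusted p = 2.08e-06) and with the offset (edgeR adjusted p = 0.0123). In edgeR, 3.18% of all genes were called without the offset and 11.5% with it.

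The 250 bases before the listed start sites were searched on both strands for 5 motifs in 13086 genes that have a promoter in the RefSeq table, among them 117 members. Of these members 20 were called higher and 6 lower by either fit. A gene was counted when any of its listed start sites had the motif. The core of the element bound by C/EBP and ATF factors, TGATGNAA, stood in 2.75% of the 13086 genes and in 3 of the 117 members. It stood in 2 of the 6 lower members, SLC1A3 and SLC9A9, and in none of the 20 higher ones. The E-box CACGTG stood in 10.6% of the 13086 genes, in 18 members and in 3 of the 20 higher members, one of which is SLC20A1. The metal response element core stood in 13.1% of the 13086 genes as TGCACNC and in 29.3% as TGCGCNC, in 18 and 41 members. TGCACNC stood in 2 of the 20 higher and 1 of the 6 lower members, and TGCGCNC in 9 of the 20 and 2 of the 6. The sterol regulatory element stood in 0.15% of the 13086 genes and in no member.

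These 3 sequences are shown because they are the promoters of the lower members that hold the C/EBP-ATF core and of the zinc exporter gene that holds the metal response core. They are RefSeq sequence of GRCh38.p14, 5′ to 3′ on the strand of the gene, the last base lying just before the listed start site, with the motif letters in capitals. SLC1A3 at chr5:36596338-36596587 (plus strand) has the C/EBP-ATF core with its first base at -220, while the windows before the other 2 listed SLC1A3 start sites lack it. SLC9A9 at chr3:143848469-143848718 (minus strand) has it at -90, and SLC30A1 at chr1:211579162-211579411 (minus strand) has TGCACNC, read on the other strand, at -49. A match is a run of letters in these windows and was not tested for binding.
SLC1A3: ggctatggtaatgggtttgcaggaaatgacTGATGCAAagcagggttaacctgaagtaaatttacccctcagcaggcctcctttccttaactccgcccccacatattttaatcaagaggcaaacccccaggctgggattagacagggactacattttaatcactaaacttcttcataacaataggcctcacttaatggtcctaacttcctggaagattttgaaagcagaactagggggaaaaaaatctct
SLC9A9: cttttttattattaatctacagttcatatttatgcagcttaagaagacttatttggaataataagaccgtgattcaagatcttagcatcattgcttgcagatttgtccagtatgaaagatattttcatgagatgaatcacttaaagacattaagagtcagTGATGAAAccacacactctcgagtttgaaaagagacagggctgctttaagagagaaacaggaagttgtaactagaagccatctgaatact
SLC30A1: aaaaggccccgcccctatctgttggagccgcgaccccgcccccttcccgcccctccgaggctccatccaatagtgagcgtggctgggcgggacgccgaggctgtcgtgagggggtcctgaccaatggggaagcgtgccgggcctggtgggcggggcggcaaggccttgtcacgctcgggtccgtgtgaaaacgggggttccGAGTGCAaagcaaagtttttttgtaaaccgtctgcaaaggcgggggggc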

How the data were processed

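Per the labels' protocols, total RNA of HN12 cells (TRIzol) gave 6 libraries, 3 with CPI-613 and 3 Control, by a NEBNext Ultra II kit, read on DNBSEQ. STAR 2.5, edgeR 3.16.5, HTSeq, CASAVA, DESeq2 and the build hg38 stand in the submitters' processing notes, with no role named. Strand use in counting is not stated.

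The authors deposited estimated counts for 79031 transcripts. The deposited matrix per gene names no unit and was taken as FPKM, that is counts divided by transcript length and library total. Over 1608 genes with 1 transcript, the median ratio of its values to counts in each library followed the inverse library total within 0.429%. That comparison was made between libraries, so division by transcript length was not checked. Left out were 27 transcripts with a date in place of a count for CPI-613 replicate 1, of which 1 belonged to a member (SLC44A1).

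Estimated counts were summed per gene, rounded, filtered (filterByExpr, minimum count 10, total 15), scaled by TMM and tested, CPI-613 against Control with group as the covariate, by edgeR 4.0.16's quasi-likelihood test. Benjamini-Hochberg adjustment covered 12671 genes at a threshold of 0.05, and counts without a gene symbol were 0.0098% of the total. SE is the log2 fold change over the square root of F. GC and length offsets came from smooth trends per library (mgcv 1.9.3), available for 99.5% of tested genes. Alternatives were other scalings and filters, DESeq2 1.42.0, limma 3.58.1 (voom, and log2(FPKM + 1)), a replicate block and leaving out each library. Only the edgeR fit without the offset was tried on simulated counts, with dispersions capped at their median and no GC trend. The offset fit and the other alternatives were not tried in this way. The closest pair of libraries in a group, Control replicates 1 and 3, had a chi-square of 3.88 per degree of freedom. The spread between libraries thus exceeded counting error, and none was taken as a second reading of the same library. This value cannot tell separate cultures from separate library preparations of the same RNA.

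Members and lists were chosen with earlier results of these data known. Named genes are the called members, the 10 largest changes called only with the offset, the 5 highest levels, those next to the limit of 1 FPKM, the highest member of a class otherwise unnamed, and called genes of the lists. Genes named beyond this rule are given for their place in a class or count, after their values were seen. Coordinates and promoters are RefSeq, GRCh38.p14.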

Additional observations from a re-analysis of the deposited data

How the results depend on the processing

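Estimates for the 23 named members kept their sign in all alternatives except for SLC39A1 and SLC39A7, neither of which was called. SLC39A1 (-0.04) was 0.19 without CPI-613 replicate 1 and 0.055 without Control replicate 2, and ran from -0.35 to 0.19 with 1 library left out. SLC39A7 (0.19) was -0.026 with library size only, -0.014 with the GC and length offset, -0.013 with offset and replicate block, and -0.024 by limma on log2(FPKM + 1). In the offset fits it was -0.045 without CPI-613 replicate 2, -0.020 without Control replicate 1 and -0.062 without Control replicate 3. The cause was not tested.

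Over all genes, 246 higher and 157 lower became 471 and 401 by DESeq2, 777 and 677 with the offset, and 54 and 16 at an adjusted p of 0.01. With library size only they were 229 and 259. Members called higher (4) and lower (3) became 13 and 5 by DESeq2, 29 and 8 with the offset, and 0 and 0 at an adjusted p of 0.01. Lower members numbered 5 by limma on log2(FPKM + 1), 1 with a mean of at least 1 FPKM in each group and 1 with a mean of at least 5 FPKM. The other scalings and filters and limma-voom gave 3 to 5 higher and 2 to 4 lower members.

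With 1 library left out, genes higher ran from 0 to 467 and genes lower from 0 to 438, and members higher from 0 to 15 and lower from 0 to 5. With the offset, genes higher and lower were 1342 and 1256 without CPI-613 replicate 1, 338 and 263 without replicate 2 of CPI-613, 771 and 649 without its replicate 3, 345 and 271 without Control replicate 1, 707 and 749 without Control replicate 2, and 346 and 284 without Control replicate 3. Members higher and lower, in the same order, were 44 and 11, 7 and 4, 26 and 7, 8 and 5, 27 and 9, and 8 and 5.

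The labels state no pairing by replicate number. Deviations of same-numbered libraries from their group means correlated at 0.559, -0.174 and -0.696. CPI-613 replicate 3 and Control replicate 2, which moved the same way with GC content, correlated at 0.743. Such values cannot show whether the samples were paired. With the replicate block 109 genes were higher and 82 lower, and 461 and 427 with block and offset. Members with the block were 1 higher and 1 lower (SLC16A13 and SLC1A3), and 17 and 5 with block and offset.

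With 3 libraries per group and this spread, low members such as SLC47A2 and SLC15A3 rest on few counts per library.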
